A study of Mus musculus with 10 samples.

Results

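The Dlx and Msx genes are 8 of the 21631 protein-coding genes that an NCBI RefSeq table of GRCm38.p6 (the assembly known as mm10) places on the mouse autosomes and X. They are Dlx1, Dlx2, Dlx3, Dlx4, Dlx5, Dlx6, Msx1 and Msx2, chosen by name. Each was taken as a window, its RefSeq span plus 2 kb on either side, and the windows held 368 of the 922427 CG positions at which 5-carboxylcytosine (5caC) was listed in at least 1 group. The study profiled 5caC at single CGs of mouse embryonic stem cell DNA. Cells labelled Tdg in serum-2i, Tdg cells in serum, wild-type (wt) cells in serum-2i and wt cells in serum each gave 2 technical replicates, and a control of serum-grown cells lacking all Tet genes gave 2 more, 10 samples in all. All cells grew without feeders on gelatin in medium with fetal serum and the cytokine LIF, and serum-2i added CHIR99021 at 3 µM, which inhibits GSK3, and PD0325901 at 1 µM, which inhibits MEK. The labels give Tdg as a gene name without the kind of alteration, and the replicates are technical, taken from 1 DNA input per group.

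5caC arises when TET enzymes oxidise 5-methylcytosine stepwise, and thymine DNA glycosylase, the product of Tdg, excises it, so that it marks DNA caught in the course of active demethylation. The Dlx genes encode homeodomain transcription factors related to Distal-less of Drosophila. They lie in linked pairs, Dlx1 with Dlx2, Dlx3 with Dlx4 and Dlx5 with Dlx6, and their nested expression in the pharyngeal arches sets the identity of upper and lower jaw. Msx1 and Msx2 encode homeodomain repressors that respond to BMP signals in the skull, teeth and limb buds. In embryonic stem cells developmental regulators of this kind are generally silent and often carry bivalent histone marks.

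The deposited table gave 1 coverage value per CG position and group, taken here as the mean over both replicates. The lowest value listed was 6 for either Tdg group, 4 for serum-2i wt and 3 for serum wt, so weaker positions are missing from the table. In order of size, serum-2i Tdg held 689303 sites, serum Tdg 374488, serum-2i wt 110753 and serum wt 8685, and their summed coverage ran from 43172 in serum wt to 12348368 in serum-2i Tdg. A position that is not listed has an unknown value, not 0. With 1 value per group there was no spread between replicates and no p-value, and the intervals given cover counting error alone, as the reads carry no molecular identifiers and 1 read can span several CGs. The control had no entry in the table and is not analysed here.

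Listed 5caC was dense at the Dlx and Msx genes in serum Tdg cells, with fewer sites per kb there in every other group. The 8 windows, 71.1 kb in all, held 98 sites in serum-2i Tdg cells and 348 in serum Tdg cells, against 4 sites for serum-2i wt and 6 for serum wt cells. In sites per kb this came to 1.38 for serum-2i Tdg and 4.89 for serum Tdg cells. Over all protein-coding windows the corresponding densities were 0.380 and 0.228 sites per kb, so the members stood at 3.62 times the average in serum-2i Tdg (exact Poisson 95% interval 2.94 to 4.41) and at 21.5 times in serum Tdg cells (19.3 to 23.8). The wt groups listed fewer sites in all windows as well. Relative to those, the members stood at 0.857 times in serum-2i wt (0.233 to 2.19) and 16.0 times in serum wt cells (5.85 to 34.7). Over the 7741 windows with a span under 10 kb, which is closer to the members' size, the mean was 0.442 sites per kb in serum-2i Tdg and 0.582 in serum Tdg cells. All densities count sites per length of window, since the number of CGs outside promoters was not analysed here, nor were exons and introns.

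**Figure D1:**
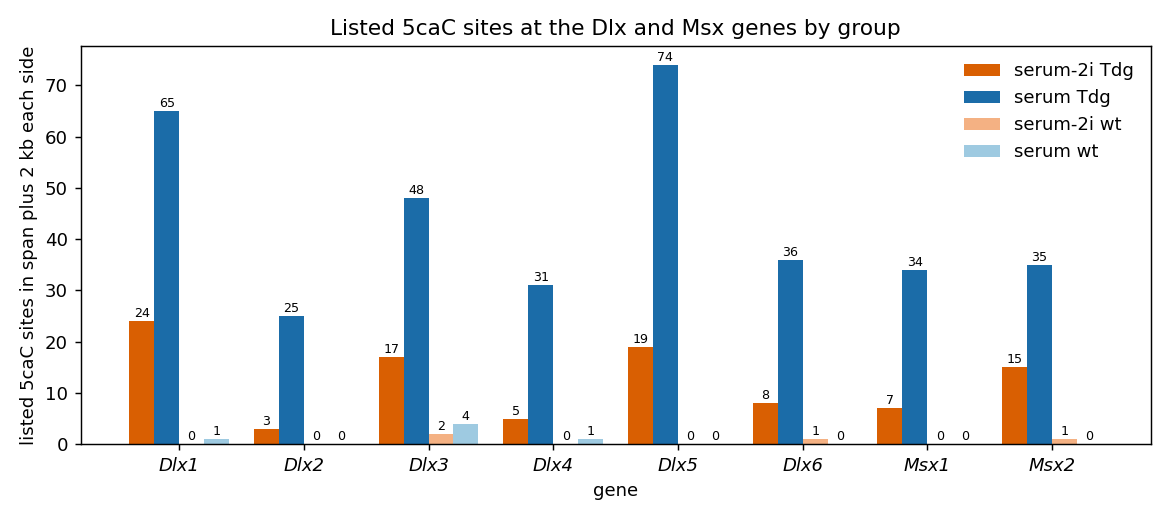
Number of listed 5caC sites (vertical axis) in the span plus 2 kb each side of each gene (horizontal axis), with 1 bar per group and the number printed above it. Every gene has its highest bar in serum Tdg cells, from 25 sites in Dlx2 to 74 in Dlx5, and no bar of a wt group passes 4.

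The start sites themselves carried few of these sites. RefSeq promoter windows of GRCm38.p6, from 250 bases before to 50 after a start site, were found for 4 members (Dlx1, Dlx2, Msx1 and Msx2) and for the noncoding RNA genes Dlx4os and Dlx6os2, which begin inside the spans of Dlx4 and Dlx6. They are shown because they hold every CG of a start region, listed or not. Capitals mark the CGs listed in serum-2i Tdg or serum Tdg cells, and each sequence runs 5′ to 3′ along its own gene. Dlx1, whose start in that table lies within its span, is chr2:71529195-71529494 on the plus strand, Dlx2 is chr2:71546705-71547004 on the minus strand, Msx1 is chr5:37824536-37824835 on the minus strand and Msx2 is chr13:53472731-53473030 on the minus strand. Dlx4os is chr11:95144803-95145102 on the plus strand and Dlx6os2 is chr6:6865101-6865400 on the minus strand.
Dlx1: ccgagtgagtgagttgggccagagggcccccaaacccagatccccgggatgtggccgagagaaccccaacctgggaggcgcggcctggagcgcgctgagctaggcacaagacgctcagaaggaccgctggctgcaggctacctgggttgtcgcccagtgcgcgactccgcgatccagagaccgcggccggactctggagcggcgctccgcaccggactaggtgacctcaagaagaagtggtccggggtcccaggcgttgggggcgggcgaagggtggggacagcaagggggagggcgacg
Dlx2: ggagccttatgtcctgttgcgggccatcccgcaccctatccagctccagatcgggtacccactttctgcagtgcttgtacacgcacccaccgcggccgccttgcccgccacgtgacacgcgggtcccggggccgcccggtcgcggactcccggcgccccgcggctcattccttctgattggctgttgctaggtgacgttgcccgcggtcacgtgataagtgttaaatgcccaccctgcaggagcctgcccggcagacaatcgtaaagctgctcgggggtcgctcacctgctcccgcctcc
Msx1: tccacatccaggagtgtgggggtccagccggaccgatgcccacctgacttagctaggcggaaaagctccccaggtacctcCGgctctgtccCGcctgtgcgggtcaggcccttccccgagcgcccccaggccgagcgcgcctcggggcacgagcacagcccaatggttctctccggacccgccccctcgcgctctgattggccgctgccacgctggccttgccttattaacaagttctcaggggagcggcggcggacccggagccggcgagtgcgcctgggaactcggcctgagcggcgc
Msx2: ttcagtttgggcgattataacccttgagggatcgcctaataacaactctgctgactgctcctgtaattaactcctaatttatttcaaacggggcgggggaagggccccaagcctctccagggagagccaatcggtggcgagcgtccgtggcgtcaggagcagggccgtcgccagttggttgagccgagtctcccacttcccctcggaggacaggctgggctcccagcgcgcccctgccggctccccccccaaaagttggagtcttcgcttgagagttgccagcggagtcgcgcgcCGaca
Dlx4os: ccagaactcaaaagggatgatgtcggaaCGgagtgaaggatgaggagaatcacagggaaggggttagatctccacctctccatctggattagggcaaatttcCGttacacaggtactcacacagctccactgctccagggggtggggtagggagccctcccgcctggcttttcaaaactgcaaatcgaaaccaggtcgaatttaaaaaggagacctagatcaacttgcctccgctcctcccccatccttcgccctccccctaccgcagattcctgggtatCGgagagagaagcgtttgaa
Dlx6os2: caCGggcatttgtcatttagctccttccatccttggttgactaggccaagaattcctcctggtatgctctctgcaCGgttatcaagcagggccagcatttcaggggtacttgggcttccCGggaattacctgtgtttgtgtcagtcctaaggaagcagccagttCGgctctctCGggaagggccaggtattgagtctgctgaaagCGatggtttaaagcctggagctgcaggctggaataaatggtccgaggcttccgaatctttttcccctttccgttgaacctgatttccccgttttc

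The member promoters were rich in CGs that were not listed. Dlx1 had 27 CGs and Dlx2 29 in these windows, none of them listed in any group. Msx1 had 2 of 29 CGs listed in serum Tdg cells, at bases 81 and 92 of the printed window with a coverage of 11.5 and 26.5, and Msx2 had 1 of 22, at base 296 with a coverage of 16.0. None of the 107 CGs of the 4 windows was listed in serum-2i Tdg cells or in wt cells, against 3 (2.80%) in serum Tdg cells. Over 6651 protein-coding promoter windows with at least 22 CGs, 0.0852% of CGs were listed in serum-2i Tdg and 0.758% in serum Tdg cells, so 3 CGs are too few to set the members apart.

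The noncoding RNA starts near Dlx4 and Dlx6 had fewer CGs, and those of Dlx4os and Dlx6os2 had more of them listed. Dlx6os2 had 10 CGs, of which 3 were listed in serum-2i Tdg and 5 in serum Tdg cells. The highest was base 174, with a coverage of 18.0 in serum-2i Tdg and 80.5 in serum Tdg cells. Dlx4os had 11 CGs, with 1 listed in serum-2i Tdg (10.5, base 103) and 3 in serum Tdg cells, the highest at base 281 (59.5). Over all 21045 protein-coding promoter windows 1.15% of CGs were listed in serum-2i Tdg and 2.41% in serum Tdg cells. No share was computed for noncoding starts or for windows with so few CGs. Both windows lie within the spans of Dlx4 and Dlx6, which held 4.79 and 5.82 sites per kb in serum Tdg cells. The counts are therefore not shown to be particular to these starts. The 2 start windows of Dlx6os1, in the flanks of Dlx6, had 5 and 3 CGs, none of them listed in any group.

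Around the member start sites the nearest listed CG of serum Tdg cells lay 748 bases upstream and 761 downstream in Dlx1, and 1757 upstream and 754 downstream in Dlx2. In serum-2i Tdg cells the nearest downstream sites were 1707 and 2676 bases away in Dlx1 and Dlx2. Msx1 had its nearest sites of serum Tdg cells 158 bases upstream and 1165 downstream, and Msx2 736 upstream and 46 downstream. All 4 genes thus had listed CGs on both sides in serum Tdg cells, and both Dlx genes had a stretch without any across the start. Of short motifs searched on both strands, CCAAT, the core of a common promoter element, was found in the windows of Dlx2, Msx1 and Msx2 and in 38.5% of 21045 protein-coding promoter windows. TAATT, the core that homeodomains often bind, was found in that of Msx2 and in 23.3% of all. The motifs do not overlap, and a match is only a match of letters.

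Tdg cells in serum-2i, which the design calls naive, were then set against those in serum, which it calls primed. All 8 members were lower in serum-2i as a share of the group's listed coverage, by 3.76 times (Msx2) to 22.8 times (Dlx2). These sums run over sites listed separately in each group, so a position that is not listed adds nothing, and the sizes depend on that. With every position listed in 1 medium alone set to 5.5 in the other, just under the lowest listed value, the 8 members were still lower, by 2.13 times (Msx2) to 4.53 times (Dlx4), with Dlx2 at 2.97 times. Over positions listed in both media, 5 members were lower (Dlx1, Dlx3, Dlx4, Dlx5 and Dlx6, by 2.14 to 3.97 times) and Dlx2, Msx1 and Msx2 were between (1.61, 1.41 and 1.49 times lower). The shares of all windows that were lower were 15.3% and 9.69% under these readings, and of short spans 36.7% and 21.3%. To be called lower or higher, a window needed at least a 2-fold difference in share and an exact 95% interval clear of 0 on the log2 scale. Of 13980 protein-coding windows with listed sites in both media and enough coverage to be kept, 27% were lower and 25.5% higher, and of the 3150 with a span under 10 kb 54.9% were lower and 10.3% higher. All 8 members passed the coverage filter, but Dlx2 and Dlx4, with the largest differences, did so only through serum Tdg cells. Their summed coverage there was 346 and 700.5, against 25 and 59 in serum-2i Tdg cells. The median log2 ratio of the 8 members was -3.16, against -0.04 over all windows and -1.18 over the short spans. Summing listed coverage over the 8 members gave -3.02 (interval -3.07 to -2.96), against -1.78 with unlisted positions at 5.5 and -1.20 over positions listed in both. Under these last readings the median of all windows was 0.01 and 0.05, and that of short spans -0.69 and -0.36. Ratios per gene and per list given further on are of listed coverage and share this limit. These comparisons of media in Tdg cells had been seen when the genes were chosen, so their direction is a description.

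Dlx1 and Dlx2, on chromosome 2, act together in the forebrain, where they direct the formation of GABA-releasing interneurons, and in the upper jaw. Dlx1 (71528113 to 71533981) had 24 sites with a summed coverage of 368 in serum-2i Tdg, against 65 sites and 1510 in serum Tdg cells. The log2 ratio of its share of the group's coverage was -2.76 (interval -2.88 to -2.64). Many of its sites lay outside the gene, with 9 of 24 in serum-2i Tdg and 23 of 65 in serum Tdg cells in the 2 kb beyond the higher end of the span and 8 and 13 below its lower end. Its highest CG in either medium, at 71526979 below the lower end of the span, had a coverage of 37.5 in serum-2i Tdg, against 70 in serum Tdg cells. Its antisense RNA Dlx1as overlaps the window and held 48 of the serum sites. Dlx2 (71543408 to 71546754) had the fewest sites of the family in either medium, 3 with a summed coverage of 25 in serum-2i Tdg, against 25 and 346 in serum Tdg cells (log2 ratio -4.51, interval -4.96 to -4.10). Its highest site of serum Tdg cells, at 71544178 inside the span, had a coverage of 40.0 and was not listed in serum-2i. In sites per kb, Dlx1 stood at 2.43 in serum-2i Tdg and 6.59 in serum Tdg cells, and Dlx2 at 0.408 and 3.40.

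Dlx3 and Dlx4 form the pair on chromosome 11. Dlx3 acts in the placenta, skin appendages, teeth and bone, and its human counterpart is mutated in tricho-dento-osseous syndrome. The Dlx3 window (span 95120117 to 95125296) had 17 sites with a summed coverage of 371 in serum-2i Tdg, against 48 and 1461.5 in serum Tdg cells (log2 ratio -2.70, interval -2.82 to -2.58). The same pair of CGs was highest in both media. The CG at 95123380, inside the span, had 89.5 in serum-2i Tdg, against 154.0 in serum Tdg cells, and that at 95126975, past the higher end, had 63.5 against 156.0. They made up 24.1% and 17.1% of the window's coverage in serum-2i Tdg, against 10.5% and 10.7% in serum Tdg cells. Dlx4 (95140447 to 95146294) had 5 sites with a summed coverage of 59 in serum-2i Tdg, against 31 and 700.5 in serum Tdg cells (log2 ratio -4.29, interval -4.58 to -4.02). In either medium nearly all of them lay inside its span, 5 of 5 in serum-2i Tdg and 28 of 31 in serum Tdg cells. The CG at 95143331 was the highest of Dlx4 in both media, with 21.5 against 98.0.

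Dlx5 and Dlx6, on chromosome 6, specify the lower jaw and act in bone and interneurons. Dlx5 (6877801 to 6882068) had 19 sites with a summed coverage of 289.5 in serum-2i Tdg, against 74 and 1932 in serum Tdg cells, the most of the family (log2 ratio -3.46, interval -3.59 to -3.33). Inside its span alone there were 12 sites in serum-2i Tdg and 60 in serum Tdg cells, or 2.81 and 14.1 per kb. By sites per kb of window only 8 of all 21631 protein-coding windows, its own included, were at least as dense in serum Tdg cells, and 189 were in serum-2i Tdg cells. Its highest CG, at 6879472, had a coverage of 61.5 in serum-2i Tdg, against 161.5 in serum Tdg cells, the highest value at any member. The second in serum Tdg cells, at 6878909, had 12.5 against 116.0. Dlx6 (6863334 to 6867970) had 8 sites with a summed coverage of 107 in serum-2i Tdg, against 36 and 886 in serum Tdg cells (log2 ratio -3.77, interval -3.98 to -3.57). Of these, 7 and 27 lay inside its span. The CG at 6867228 was highest in serum Tdg cells, with 15 in serum-2i Tdg, against 86 in serum Tdg cells. The long noncoding RNA gene Dlx6os1 covers its whole span, so that sites of the 2 genes cannot be told apart.

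Msx1 on chromosome 5 acts in tooth and palate formation and Msx2 on chromosome 13 in skull growth. Msx1 (37820491 to 37824585) had 7 sites with a summed coverage of 128 in serum-2i Tdg, against 34 and 562 in serum Tdg cells (log2 ratio -2.86, interval -3.06 to -2.66). In serum-2i only 1 of the 7 lay inside the span, at 37820882, while 15 of 34 did in serum. Most of the remaining sites of serum-2i, 5 of them, lay in the 2 kb beyond the higher end, upstream of the start site printed above, where 14 were listed in serum. The highest CG of Msx1, at 37825872, was one of these and had a coverage of 29 in serum-2i Tdg, against 53 in serum Tdg cells. Msx2 (53466881 to 53472780) had 15 sites with a summed coverage of 299 in serum-2i Tdg, against 35 and 681.5 in serum Tdg cells (log2 ratio -1.91, interval -2.05 to -1.77). By listed coverage it was the member with the smallest difference. At the CG at 53470899 coverage was higher in serum-2i (36 in serum-2i Tdg, against 26.5 in serum Tdg cells), while at 53466424 it was 37.5 against 41 and at 53466073 16.5 against 62. The long noncoding RNA gene Gm33763 covers all of its span. Msx3, the remaining mouse paralogue, expressed in the dorsal neural tube, had 5 sites in serum-2i Tdg, against 9 in serum Tdg cells (log2 ratio -2.18, interval -2.50 to -1.86).

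**Figure D2:**
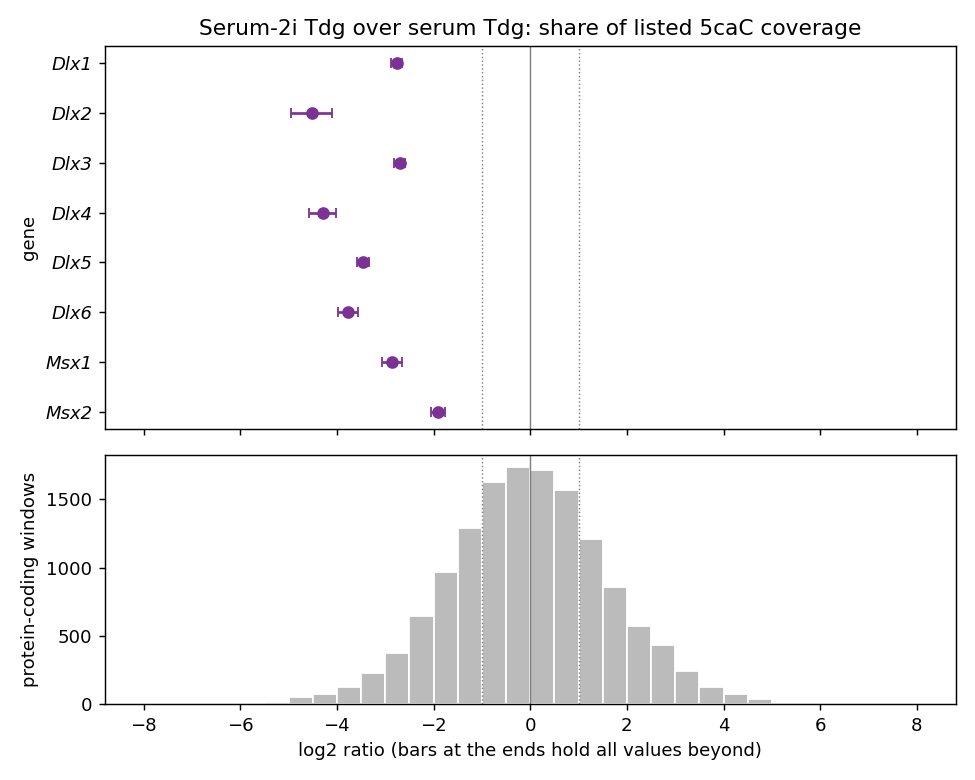
Upper panel, log2 ratio of each gene's share of summed listed coverage in serum-2i Tdg over serum Tdg cells (points) with its exact 95% interval for counting error (bars), and lower panel, the number of protein-coding windows at each ratio. Dotted lines mark a 2-fold difference; all 8 genes lie left of the left line, from -4.51 for Dlx2 to -1.91 for Msx2, whereas the windows as a whole centre on -0.04.

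The order of the members by sites per kb in serum Tdg cells was Dlx5 (8.95), Dlx1 (6.59), Dlx3 (5.23), Msx1 (4.20), Dlx6 (4.17), Msx2 (3.54), Dlx2 (3.40) and Dlx4 (3.15). In serum-2i Tdg cells it was Dlx1 (2.43), Dlx5 (2.30), Dlx3 (1.85), Msx2 (1.52), Dlx6 (0.926), Msx1 (0.865), Dlx4 (0.508) and Dlx2 (0.408). The same 3 genes, Dlx1, Dlx3 and Dlx5, led in both media. For each of the 7 pairs of neighbours in either order, the exact 95% interval of the ratio of their densities included 1. In serum Tdg cells the ratio ran from 1.01 (0.612 to 1.66) for Msx1 over Dlx6 to 1.36 (0.961 to 1.93) for Dlx5 over Dlx1, so neighbours could not be ranked. Relative to all protein-coding windows, those at least as dense as a given member made up 0.0370% (Dlx5) to 1.53% (Dlx4) in serum Tdg cells. In serum-2i Tdg cells they made up 0.624% (Dlx1) to 43.0% (Dlx2), with Dlx4 second to last at 36.6%.

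The CGs of the members also listed in serum-2i had, by median, higher coverage in serum. Of the positions in the windows, 82 were listed in both media, which is 83.7% of the 98 in serum-2i Tdg and 23.6% of the 348 in serum Tdg cells. Over the whole table the shares were 28.7% of serum-2i Tdg and 52.8% of serum Tdg sites. At the members, the 82 shared positions had a median coverage of 33.25 in serum Tdg cells, and the 266 listed in serum Tdg but not in serum-2i Tdg cells had 14.0. In Dlx2, with 1 shared position, the values were 12.0 and 11.75. The same medians were not computed over the whole table, so this is not shown to be particular to the members. Positions listed in serum-2i Tdg and not in serum Tdg cells numbered 16, among them 4 in Dlx1, 4 in Msx2 and 3 in Dlx5. Dlx4 and Msx1 had none.

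Coverage at the shared CGs was lower as well. It was lower in serum-2i Tdg cells at 76 of the 82 positions and higher at 6, and the median ratio of serum-2i over serum coverage was 0.471. Over all 197737 positions shared by the media in Tdg cells, 47.4% were lower and the median ratio was 1.04. These are the listed values, not scaled to each group's total, and a position under the lowest listed value in either group drops out. In Dlx5 all 16 shared CGs were lower (median ratio 0.396) and in Dlx4 all 5 (0.246). Of the 20 in Dlx1 and 16 in Dlx3, 19 and 15 were lower (0.482 and 0.440), of the 6 in Dlx6 5 were (0.297), and of the 11 in Msx2 9 were (0.731). The 7 in Msx1 had 6 lower, with a median ratio of 0.771. Dlx2 had a single shared CG (7.5 in serum-2i Tdg, against 12 in serum Tdg cells). The median ratios of the Msx genes were nearer to equal coverage than those of the Dlx genes, a difference that was not tested.

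**Figure D3:**
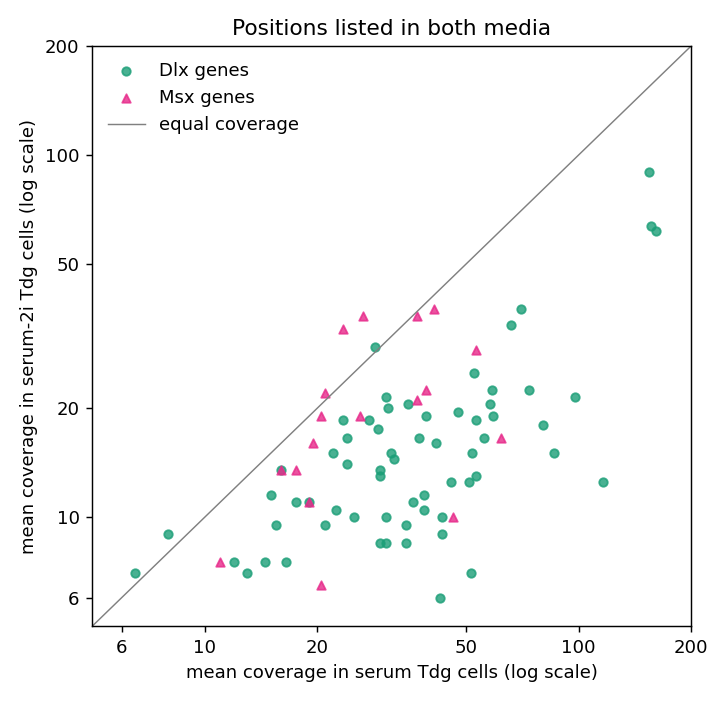
Mean coverage of each CG listed in both media in serum-2i Tdg cells (vertical axis) and in serum Tdg cells (horizontal axis), both on log scales, with circles for Dlx and triangles for Msx windows. Of the 82 points, 76 lie below the line of equal coverage and 6 above it.

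In serum Tdg cells the sites formed runs. With gaps of at most 100 bp between neighbours, the windows held 25 runs of at least 5 sites in serum Tdg cells, found in all 8 genes, and none in serum-2i Tdg cells. Of all protein-coding windows, 20.5% held such a run in serum-2i Tdg and 20.2% in serum Tdg cells, and of those with a span under 10 kb 6.27% and 12.6% did. The longest lay in Dlx5, with 28 sites over 944 bp (chr6:6878168-6879111) and a summed coverage of 934.5, and 10 of its CGs were also listed in serum-2i. A second run of Dlx5 had 13 sites over 141 bp (chr6:6879439-6879579, summed coverage 466.5), of which 2 were listed in serum-2i. Dlx6 had 12 sites over 202 bp (chr6:6864701-6864902), with 1 in serum-2i, and Dlx4 11 over 215 bp (chr11:95143276-95143490), with 4. In Dlx1 the runs of 11 (chr2:71534948-71535276) and 10 sites (chr2:71534292-71534735) lay beyond the higher end of the span, downstream of the gene and inside Dlx1as. The runs of Dlx3 and Msx1 had at most 7 sites, and those of Dlx2 and Msx2 at most 5.

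**Figure D4:**
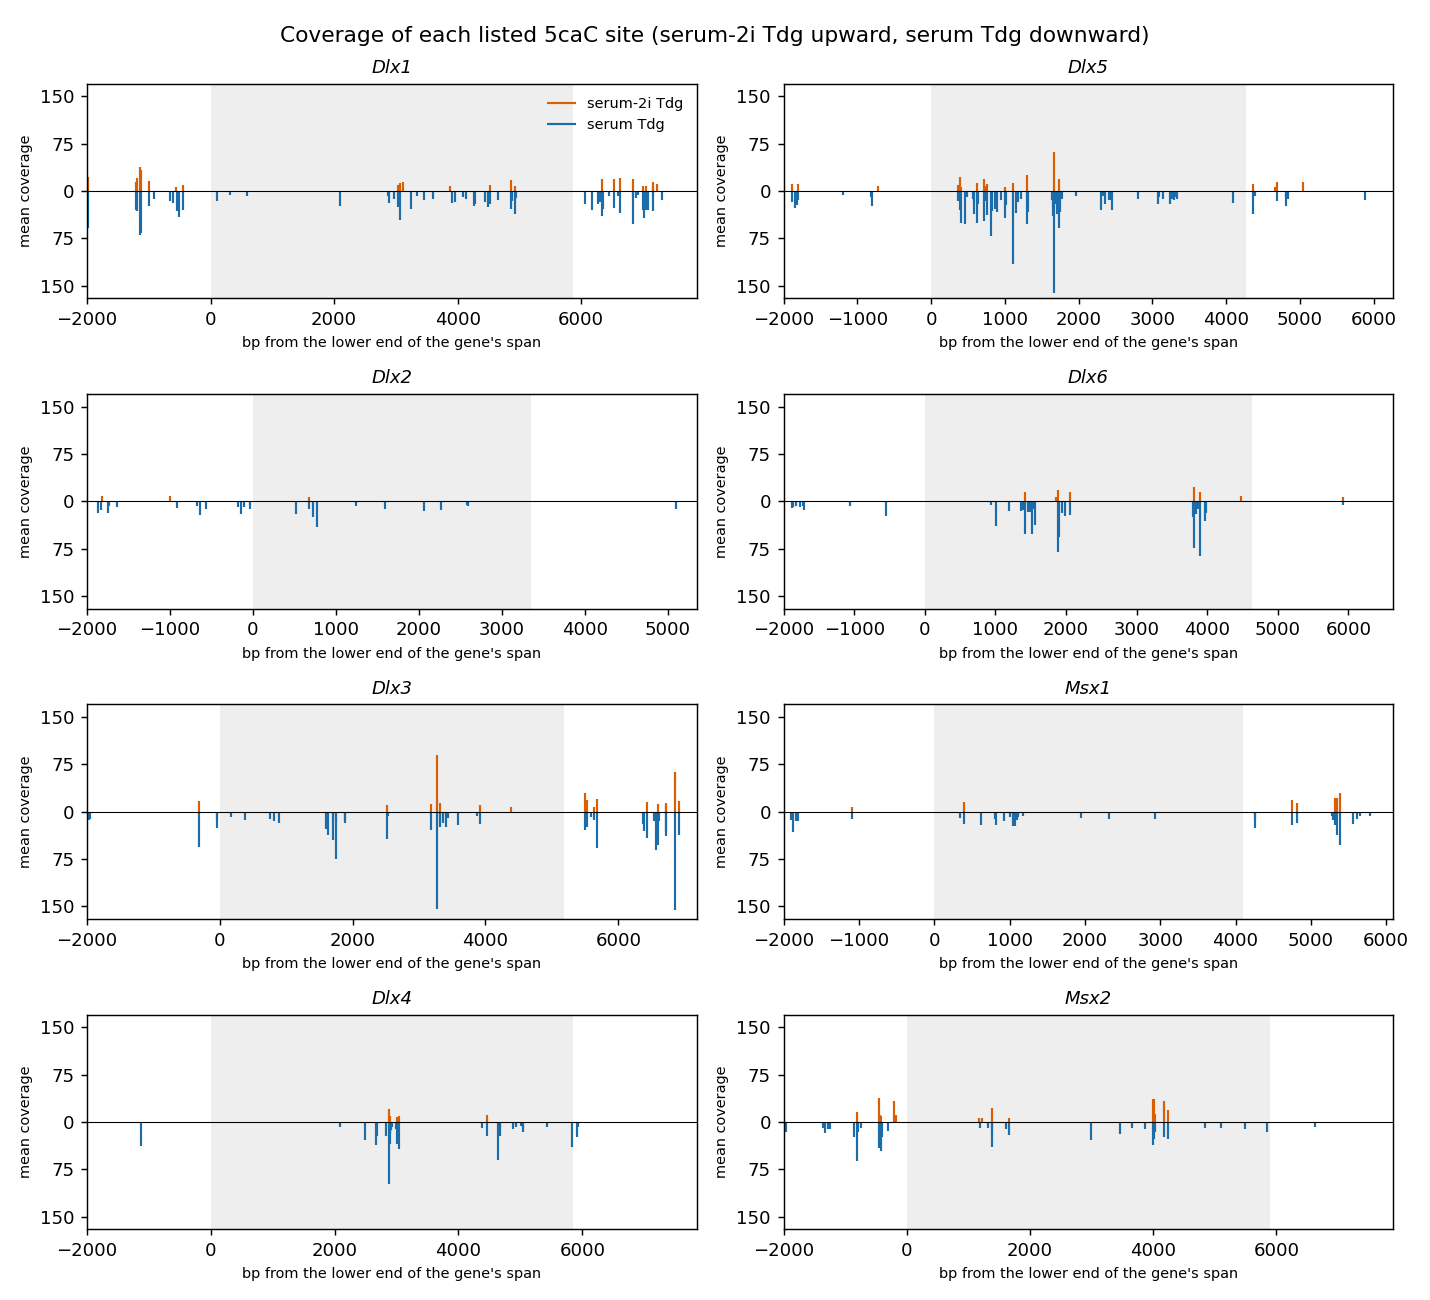
Mean coverage of every listed CG along the window of each gene, upward for serum-2i Tdg and downward for serum Tdg cells; the horizontal axis gives the distance in bp from the lower end of the span, which is shaded. Sites of serum Tdg cells cluster inside Dlx5, Dlx6 and Dlx4, as the 28-site run of Dlx5 shows, and on both sides of Dlx1.

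Inside spans lay 48 of the 98 sites in serum-2i Tdg and 214 of the 348 in serum Tdg cells, and the others lay in the flanks. By sites per kb, Dlx5 was 4.02 times as dense within its span as in its flanks in serum Tdg cells (14.1 and 3.50 per kb). Dlx4 (6.38 times) and Dlx6 (2.59 times) were also denser inside. Dlx1 had fewer inside (4.94) than in its flanks (9), a ratio of 0.549. The other members were also below 1, with Dlx2 at 0.797, Dlx3 at 0.913, Msx1 at 0.771 and Msx2 at 0.805. The space between paired genes, outside their windows, holds enhancers of the Dlx pairs. Between Dlx1 and Dlx2 (5.43 kb) 16 sites were listed in serum-2i Tdg, against 31 in serum Tdg cells, with a log2 ratio of coverage of -2.01 (interval -2.17 to -1.85). Between Dlx6 and Dlx5 (5.83 kb) there were 5 against 19 (-2.98, interval -3.25 to -2.71). Between Dlx3 and Dlx4 (11.2 kb) there were 15 in each, with a ratio of -0.63 (interval -0.81 to -0.45), which is short of 2-fold. Its counting interval did not overlap those of the other stretches. These ratios are also of listed coverage, without a spread between replicates, and a difference between the stretches was not tested.

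In wt cells few sites were listed, and Dlx3 held most of them. The 9 wt positions lay in Dlx3 (5), Dlx1, Dlx4, Dlx6 and Msx2 (1 each), while Dlx2, Dlx5 and Msx1 had none. The Dlx3 CG at 95124039 was the single position of the family listed in all 4 groups, with a coverage of 11 for serum-2i Tdg, 19 for serum Tdg, 13 for serum-2i wt and 7 for serum wt. The strongest Dlx3 CGs of Tdg cells were also listed, 95123380 with 8.0 in serum-2i wt and 95126975 with 4.0 in serum wt cells, as was 95125797 with 6.0 in serum wt cells. The Dlx6 CG at 6864345 had 38.5 in serum Tdg and 8.0 in serum-2i wt cells. The other 4 wt positions, with values from 3.0 to 4.5, were listed in neither Tdg group. As the lowest listed value there was 6, equal coverage in Tdg cells would not have been listed.

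For serum-2i against serum in wt cells, Dlx3 alone had sites in both media, 2 with a summed coverage of 21 in serum-2i and 4 with 20 in serum. As a share of each group's coverage this was lower in serum-2i (log2 ratio -4.30, interval -4.96 to -3.63) when sites listed separately in each group were summed. At the single Dlx3 CG listed in both media the ratio of shares was -0.08 (interval -1.07 to 0.97), with a coverage of 13 in serum-2i and 7 in serum, and the call was lost. The call by listed coverage is one that 60.9% of the 3520 windows with sites in both also received, while 4.69% were higher. A window entered only where the sparse serum wt group happened to list it, and the median of all such windows was -1.56. Relative to all protein-coding windows the members held 0.857 times the average density in serum-2i wt (4 sites, exact Poisson interval 0.233 to 2.19) and 16.0 times in serum wt cells (6 sites, 5.85 to 34.7), of which 4 lay in Dlx3. Against the mean of short spans, the members had 0.0562 sites per kb in serum-2i wt (short spans 0.0748) and 0.0843 in serum wt cells (short spans 0.0159).

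For Tdg against wt cells in serum, Dlx1, Dlx3 and Dlx4 could be compared. Dlx3 had a summed coverage of 1461.5 in Tdg and 20 in wt cells, a lower share of the Tdg total (log2 ratio -1.25, interval -1.70 to -0.76), as had 54.8% of 3829 windows, while 4.23% were higher. The median of all those windows was also -1.25, and the call was lost with shares scaled by that median (0.0054), by number of sites (-1.85, interval -3.29 to 0.09) or without the highest site (-0.79). Dlx1 (65 sites in Tdg and 1 in wt cells, 0.95, interval 0.03 to 2.08) and Dlx4 (31 and 1, 0.43, interval -0.70 to 1.88) were between, and scaled by that median both were higher (2.20, interval 1.28 to 3.33, and 1.68, interval 0.56 to 3.13). The other 5 members had 25 to 74 sites in Tdg cells and none listed in wt cells. In serum-2i, Dlx3 (17 and 2 sites, log2 ratio 0.35, interval -0.10 to 0.83) and Dlx6 (8 and 1, -0.05, interval -0.79 to 0.78) were between. Msx2 (15 and 1, 2.43, interval 1.44 to 3.65) was higher in Tdg, as were 11.3% of 12154 windows, while 20.7% were lower. Its wt value rests on 1 CG with a coverage of 4, and by number of sites its log2 ratio of 1.27 was not called. Summed over the 8 members, the share in Tdg over wt cells had a log2 ratio of 0.76 in serum (interval 0.38 to 1.17) and 1.85 in serum-2i (1.5 to 2.22). The serum interval included 0 with a common minimum of 6 (-0.20 to 0.97), without positions in other genes' spans (-0.13 to 0.73) and by number of sites (-0.71 to 1.88). The serum-2i value was 0.80 without flanks and 3.59 without the highest site of each window. Both sums count listed sites alone, so an unlisted wt position adds nothing. In either medium 5 members had no site listed in wt cells. Only 3 positions were listed in both genotypes in serum and 2 in serum-2i. The sums were not recomputed over those positions. In serum the 3 shared CGs, all of Dlx3, had 19, 58 and 156 in Tdg, against 7, 6 and 4 in wt cells. The group totals were 7486660 and 43172. In serum-2i the 2 shared CGs of Dlx3 had 11 and 89.5 against 13 and 8, of totals of 12348368 and 890158.5. Each of these CGs thus held a smaller share of the Tdg than of the wt total, opposite in direction to both sums.

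Other genes of jaw, tooth and interneuron development were read from 4 lists for Tdg cells in serum-2i over serum, where 27% of all windows were lower and 25.5% higher. Of windows with a span under 10 kb, 54.9% were lower and 10.3% higher, and the lists were not split by span. Of 28 transcription factors of the craniofacial list with a ratio, out of 30, 25 were lower, 1 higher and 2 between (median log2 ratio -2.52). Barx1, a homeobox gene of the molar field, was lowest with 3 sites in serum-2i Tdg, against 62 in serum Tdg cells (-5.92). Eya1, a transcriptional cofactor of ear and kidney development, was the higher one (58 against 8, 2.59), and Pax7, a neural crest and muscle regulator, had the most sites in serum (132 against 179, -1.33). Of 10 interneuron genes with a ratio, out of 12, 8 were lower, 1 higher and 1 between (median -2.59). The zinc-finger gene Zeb2 had the most sites in serum (81 in serum-2i Tdg, against 87 in serum Tdg cells, -1.08).

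The lists of arch signals and of bone and tooth genes had medians nearer 0. Of 14 arch signalling genes with a ratio, out of 15, 7 were lower, 1 higher and 6 between (median -1.10). Shh, the hedgehog ligand, was lowest (6 sites in serum-2i Tdg, against 68 in serum Tdg cells, -4.88). Edn1, the endothelin ligand that induces Dlx5 and Dlx6 in the lower jaw, was highest (14 against 2, 1.66), and Ece1, which processes it, was between with 204 against 141 sites (-0.34). Of 9 bone and tooth genes with a ratio, out of 13, 2 were lower, 2 higher and 5 between (median -0.16), with Sp7, an osteoblast factor, lowest (4 against 32, -4.41), the dentin gene Dspp highest (5 against 1, 3.34) and Alpl, an alkaline phosphatase of bone, richest in serum sites (114 against 69, -0.31).

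The genes most like the members were sought by the Euclidean distance over the 4 groups between log2 site densities (sites plus 0.5, per kb, relative to each group's number of sites), among 13033 other genes with at least 10 sites. The nearest to the members' median were Gfy (7 sites in serum-2i Tdg, against 29 in serum Tdg cells), Thbd, the thrombin receptor thrombomodulin (7 against 32), and Foxl2, a forkhead factor of the ovary (7 against 28). None of the 3 had a site listed in wt cells. Their distances were 0.298, 0.353 and 0.362, and those of the members themselves ran from 0.433 to 3.65.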

How the data were processed

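5caC was measured at CGs of mouse embryonic stem cell DNA. Per the labels' protocols, 5-hydroxymethylcytosine and unmodified CGs were blocked, an engineered methyltransferase replaced the carboxyl group by an azide tag, and tagged DNA was enriched and sequenced on an Ion Proton. The authors deposited a coverage value, a signal never below 0, for each listed position of 4 groups, on build mm10 per the submitters' processing notes. The sources used here do not state the aligner, the caller or the rule for listing. All values were whole or ended in 0.5, and each was taken as the mean over 2 technical replicates. The control samples were used to make the table, per the labels.

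All 14229 listed positions inside RefSeq promoter windows fell on the C of a CG when read as counted from 0, so 1 was added and positions here count from 1. Spans and promoter sequences came from RefSeq tables of GRCm38.p6. For each of 21631 protein-coding windows (span plus 2 kb), coverage was summed and divided by the group's total. Ratios carry an exact conditional Clopper-Pearson 95% interval on coverage times 2. The calls and intervals were also run on simulated window totals with known 8-fold changes. These totals were independent Poisson counts, as the interval itself assumes, without a lowest listed value or reads spanning several CGs. That run therefore checked the calculation alone, not how well the intervals suit these data. Windows were kept where coverage averaged at least 20 over the 4 groups. The count model planned for values per replicate could not be run with 1 value per group, and no p-value was computed. Alternatives were other flanks, a site minimum of 10, numbers of sites, median-ratio scaling, leaving out the highest site or positions in other genes, positions moved by 1 base, and, added after seeing the data, a common minimum of 6, unlisted positions set just under the lowest listed value, and positions listed in both media. Named genes were all members, Msx3, and of each list the lowest, the highest and the one with most sites in serum Tdg cells; list members without a ratio are counted only, and the lowest and highest of the interneuron list are not reported here. Members and lists were chosen with earlier results of these data known. Python 3.11.15, numpy 2.4.6, scipy 1.17.1 and pandas 2.3.3 were used.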

Additional observations from a re-analysis of the deposited data

How the results depend on the processing

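In serum-2i over serum Tdg cells, every member that kept sites in both media was called lower under 9 of 10 alternatives; over positions listed in both media 5 were (summed ratio -1.20). All 77 member values were below 0, from -5.12 to -0.50. Otherwise 8 were lower, or 7 with a site minimum of 10 (Dlx2 had no site left in serum-2i) and 6 without positions in other genes' spans (Dlx6 and Msx2 lie wholly within them). The log2 ratio of summed coverage, -3.02, became -1.78 with positions listed in 1 medium set just under the lowest listed value, -2.71 by number of sites, -3.08 without other genes' spans, -3.09 with a site minimum of 10, -2.53 with 10 kb flanks, -3.39 without flanks and -3.18 without the highest site. The share of serum-2i Tdg sites also listed in serum became 92.9% with a site minimum of 10. In serum-2i over serum wt cells, the summed ratio of -4.10 became -0.078 over positions listed in both media (0 members lower), -2.54 with median-ratio scaling, -2.85 with 10 kb flanks (3 members lower), -3.45 without flanks and -5.07 without the highest site. In Tdg over wt cells in serum, 0.76 became 0.36 with a common minimum of 6, 0.28 without other genes' spans, 2.01 with median-ratio scaling and 1.71 without the highest site. There the number of members lower was 0 by number of sites, with median-ratio scaling and without the highest site, and the number higher was 2 with that scaling and 1 with 10 kb flanks. Dlx3 reversed from -1.25 to 0.0054 under that scaling, which by construction subtracts the median of all windows. In Tdg over wt cells in serum-2i, 1.85 became 1.47 with 10 kb flanks, 0.80 without flanks and 3.59 without the highest site. There 0 members were higher by number of sites, with a minimum of 6 or 10 and without other genes' spans, 5 with 10 kb flanks, and 1 was lower without flanks. Where no cause is named, the cause was not tested. No paired analysis was possible because the table gives 1 value per group, and for the same reason no replicate could be left out; neither fit was run. No ratio over serum wt could be had with a site minimum of 10. The wt values rest on 4 sites in serum-2i and 6 in serum over the 8 genes.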
